A study of Mus musculus with 18 samples.

Results

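The potassium channel genes of the mouse were taken here as all genes whose name begins with Kcn, leaving out antisense names ending in os and pseudogene names holding -ps. The rule found 95 genes of the 38924 in each table, under 94 symbols, because Kcnb2 stands in the tables under 2 Ensembl identifiers. The values are from 18 spinal cord libraries of mice aged 8 weeks, made with RiboTag: cells that express Cre make the ribosomal protein Rpl22 with a haemagglutinin tag, and their ribosomes are pulled down through the tag together with bound mRNA. The study asked how the P278KY mutation of Gars, the gene for glycyl-tRNA synthetase and a cause of inherited motor neuropathy, changes ribosome-bound mRNA of motor neurons. All 18 mice carried 1 tagged Rpl22 allele on a mixed B6;CASTxB6.129 background, and their sex is not in the labels. The groups were Cre P278KY with Chat-Cre and 1 mutant Gars allele (n = 3), Cre WT with Chat-Cre and normal Gars (n = 4), NoCre P278KY with the mutant allele and no Cre (n = 6), and NoCre WT with neither (n = 5). The Chat promoter drives Cre in cholinergic neurons of every kind, so autonomic motor neurons and cholinergic interneurons are tagged along with skeletal motor neurons. NoCre libraries hold the RNA that comes down without a tagged ribosome and serve as the background.

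Potassium channels carry the outward current that sets the resting potential of a neuron, ends each action potential and limits the firing rate. Voltage-gated Kv channels are tetramers of alpha subunits, to which silent subunits (Kcnf, Kcng, Kcns and Kcnv genes), Kv beta subunits (Kcnab) and KChIP proteins (Kcnip) may be added, while calcium-activated channels make the after-hyperpolarisation that paces motor neurons. Inward rectifiers (Kir, Kcnj genes) and tandem-pore leak channels (K2P, Kcnk genes) hold the membrane at rest, and in glia Kir channels take up the potassium that active neurons release.

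Promoter windows of 250 bases before the RefSeq start (build GRCm38.p6) were at hand for 69 of the 94 symbols, 94 windows in all since some genes have several starts. The windows of 3 genes are shown because the results turn on these genes: Kcnj2, the only one of the 4 genes lower in Cre P278KY than in Cre WT that has an entry, Kcng4, among the genes most enriched in tagged ribosomes, and Kcnj10, the most abundant channel mRNA of the background. Capitals mark matches, on either strand, to GGGCGG (the GC box of Sp1) and CACGTG (an E-box).
Kcnj2, chr11:111065914-111066163, plus strand: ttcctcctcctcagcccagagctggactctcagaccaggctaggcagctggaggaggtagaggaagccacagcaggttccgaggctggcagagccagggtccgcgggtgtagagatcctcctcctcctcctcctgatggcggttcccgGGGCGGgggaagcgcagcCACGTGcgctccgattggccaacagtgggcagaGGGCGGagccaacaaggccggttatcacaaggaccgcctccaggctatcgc
Kcng4, chr8:119635681-119635930, minus strand: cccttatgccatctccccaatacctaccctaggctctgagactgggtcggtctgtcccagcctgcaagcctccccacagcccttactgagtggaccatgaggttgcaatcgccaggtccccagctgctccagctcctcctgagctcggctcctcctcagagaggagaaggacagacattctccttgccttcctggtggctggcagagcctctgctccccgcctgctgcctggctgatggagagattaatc
Kcnj10, chr1:172340960-172341209, plus strand: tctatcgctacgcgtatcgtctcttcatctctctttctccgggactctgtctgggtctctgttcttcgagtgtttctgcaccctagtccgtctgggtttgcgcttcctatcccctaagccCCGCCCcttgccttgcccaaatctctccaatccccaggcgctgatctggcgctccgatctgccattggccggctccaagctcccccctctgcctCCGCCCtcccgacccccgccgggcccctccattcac

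The Kcnj2 window had 65.6% G or C and held CACGTG starting 84 bases before the start, between GGGCGG matches at 102 and 51 bases. The Kcnj10 window (62.0% G or C) held its pair of GC boxes, read on the other strand as CCGCCC, at 130 and 36 bases. The Kcng4 window (60.4%) held neither motif. GGGCGG was in 42 of the 94 windows (44.7%), against 32.7% of the 32851 mouse windows, and CACGTG in 6.38% against 6.02%. TATAAA was in 3.19% against 12.4%. TGATGNAA, read by the transcription factor ATF4 with a C/EBP partner, was in 2.13% of Kcn windows against 3.45%. TGACGTCA, the cAMP response element, was in 0 of 94 against 1.55%. All motifs were searched on both strands, and a match describes the letters alone. Median G and C content was 58.6% for Kcn windows and 52.4% for all windows.

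Cre P278KY libraries held 15461440 to 18944769 counts and Cre WT libraries 14659488 to 24028649. The NoCre libraries were shallower, with 9876808 to 14450144 counts for P278KY and 8177758 to 11480402 for WT. Mitochondrial ribosomal RNA took 2.16% to 4.88% of counts in the mutant and 1.36% to 3.36% in the WT Cre libraries, against 24.2% to 38.6% and 31.8% to 53.8% without Cre. The labelled cell type was checked with 10 cholinergic markers, of which all were higher with Cre in both genotypes. They summed to 1669 to 2122 CPM (counts scaled to 1000000 per library, with TMM factors) in Cre P278KY and 1878 to 3361 CPM in Cre WT, against 60.8 to 79.6 CPM in NoCre P278KY and 98.2 to 125.9 CPM in NoCre WT. No gene of the marker lists was at 0 throughout a group. Sequencing pools are not named in the labels and were inferred from the index and library number in the descriptions. On that reading Cre WT replicates 1 and 2 came from pool 1 and replicates 3 and 4 from pool 2. All 3 Cre P278KY libraries were in pool 1. The pool 2 libraries of Cre WT stood apart: 10 oligodendrocyte genes summed to 3859 to 4275 CPM there, against 764 to 1217 CPM in the pool 1 libraries and 719 to 1805 CPM in Cre P278KY, and the cholinergic list to 1878 to 2082 CPM, against 3085 to 3361 CPM. Xist, the transcript of the inactive X chromosome of females, was at 0, 108.8 and 139.8 CPM in Cre P278KY replicates 1, 2 and 3, and in Cre WT at 0.271 and 0.0682 CPM in pool 1 and at 54.8 and 74.3 CPM in pool 2. The NoCre libraries were at 0.473 to 0.890 CPM in pool 1 and at 180.3 to 1032 CPM in pool 2. Unlike the other CPM values, those of Xist are scaled by library totals alone, without TMM factors. The genotype results are given over all 7 Cre libraries and within pool 1 (3 against 2). Within pool 1 the comparison sets 1 library low and 2 libraries high in Xist against 2 low ones, and over all 7 libraries pool 2 holds Cre WT alone, so that the part of sex and pool in the genotype results was not tested and cannot be fully told apart from genotype.

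Expressed per kilobase of effective length, which makes genes comparable, the summed level of all Kcn genes was 694 ± 76.3 CPM per kb in Cre P278KY, 984 ± 58.4 in Cre WT, 556 ± 40.4 in NoCre P278KY and 599 ± 104 in NoCre WT (mean ± SD). The highest level per length in Cre WT belonged to Kcnab2, a Kv beta subunit that binds Kv1 channels and helps to bring them to the axon, at 139 CPM per kb. High levels were also those of Kcnk9 (TASK-3, an acid-sensitive leak channel) at 83.8, Kcng4 (Kv6.4, a silent partner of Kv2) at 61.2, Kcna2 at 56.3, Kcnj14 (Kir2.4, known from cranial motor neurons of the rat) at 52.7 and Kcna1 at 51.4 CPM per kb. From Kcnk9 downward the mean ± SD ranges of neighbours among the genes named overlapped, so neighbours are not resolved. In Cre P278KY Kcnab2 was again highest (104 CPM per kb), and Kcnip4 (a KChIP, 41.5), Kcng4 (40.1) and Kcnk9 (38.9) lay within each other's spread. In the background the first place belonged to Kcnj10, the glial channel Kir4.1 that clears potassium, at 72.4 CPM per kb in NoCre P278KY and 120.5 in NoCre WT, and Kcnj14 ranked 54 and 35 there. The level of Kcnj10 in Cre libraries was 8.17 CPM per kb in Cre P278KY and 20.7 in Cre WT.

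**Figure D1:**
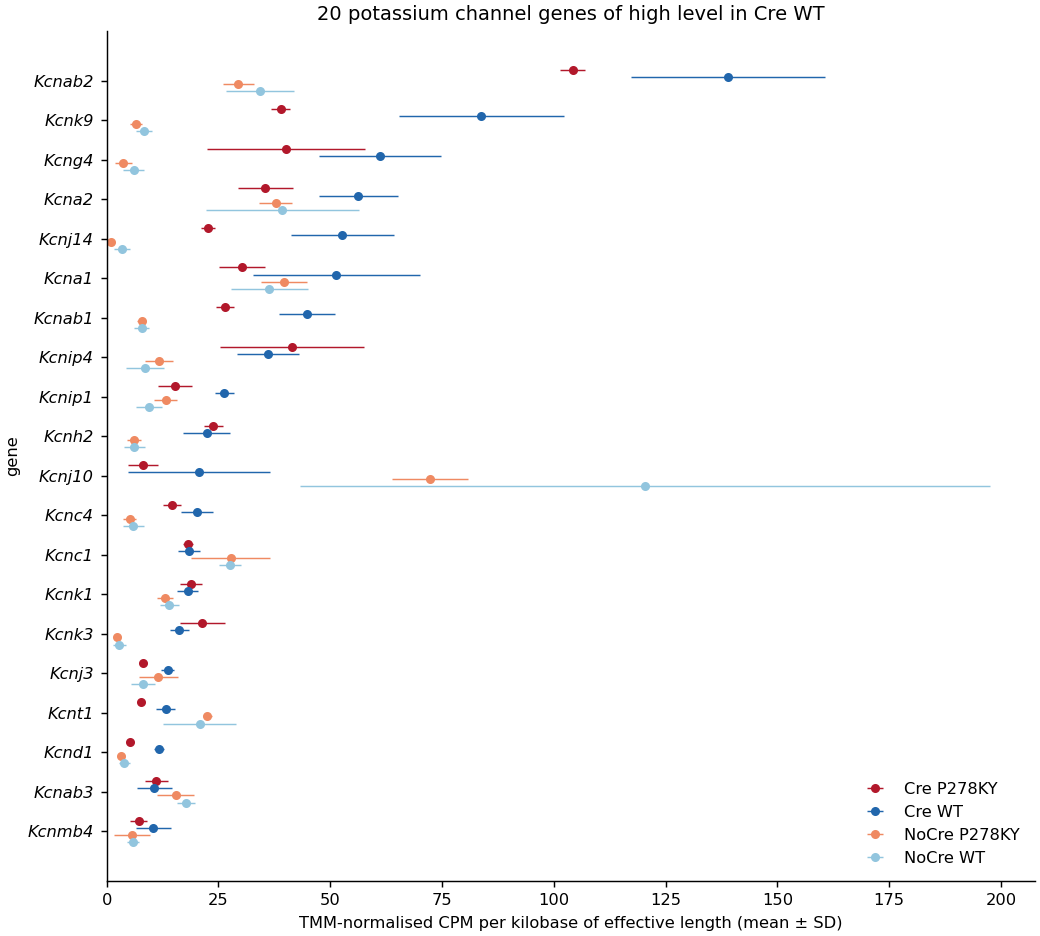
Level per length of 20 Kcn genes of high level in Cre WT, as TMM-normalised CPM per kilobase of effective length (x axis, mean ± SD over the libraries of each group, genes on the y axis). Kcnab2 is highest in both Cre groups (104 and 139 CPM per kb), and Kcnj10 is the gene whose background level exceeds its Cre level most on this scale.

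The makeup of the channel mRNA differed between tagged and background RNA in shares that do not depend on the scaling of libraries. Kv beta genes made up 20.6% of the summed level per length in Cre P278KY and 19.9% in Cre WT, against 9.54% in NoCre P278KY and 10.2% in NoCre WT. The K2P share was 12.7% and 13.1% in the Cre groups, against 5.00% and 5.39%. The share of the 10 silent Kv genes was 6.496% and 6.99%, against 1.41% and 1.79%. Kir genes went the other way, with 7.79% in Cre P278KY and 10.9% in Cre WT, against 20.95% in NoCre P278KY and 26.7% in NoCre WT. Single genes weighed heavily in both classes. Kcnj10 made up 72.4 of the 116.8 CPM per kb of Kir in NoCre P278KY and 120.5 of 165.2 in NoCre WT. In Cre P278KY it made up 8.17 of 53.6 and in Cre WT 20.7 of 108.0. Kcng4 made up 40.1 of the 45.85 CPM per kb of silent Kv in Cre P278KY and 61.2 of 69.2 in Cre WT. These shares thus do not describe the Kir and silent Kv classes as a whole. Kv1 held 10.5% and 11.4%, against 15.8% and 14.9%, and Kv3 held 14.4% and 14.1%, against 13.1% and 11.5%. Library ranges did not overlap between Cre and NoCre libraries of the same genotype for Kv beta, K2P, silent Kv and Kir. They overlapped for Kv3 in both genotypes and for Kv1 in WT mice.

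**Figure D2:**
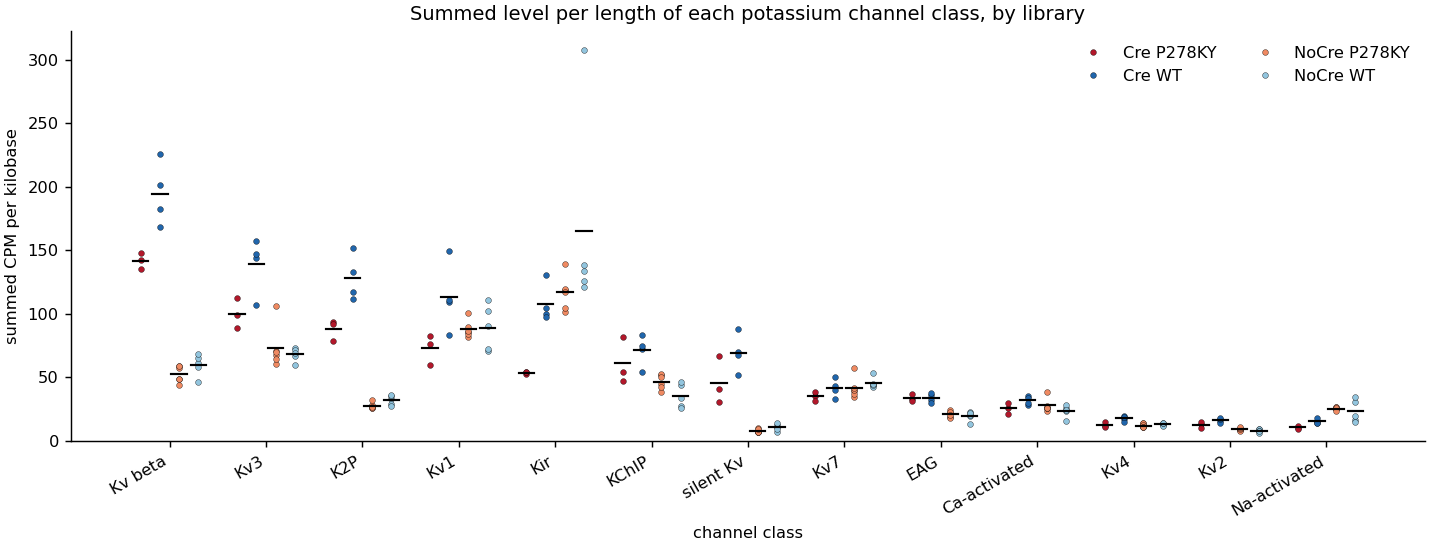
Summed CPM per kilobase of each channel class (y axis) in every library, with the 4 groups side by side in each class on the x axis and a bar at the group mean. Kv beta, K2P and silent Kv stand higher in both Cre groups than in their NoCre groups, and Kir is lowest in Cre P278KY (52.6 to 54.4 CPM per kb).

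Which channel mRNAs rode on tagged ribosomes above background was asked by setting Cre against NoCre libraries in each genotype. In P278KY mice 20 of 80 tested Kcn genes were higher and 24 lower in Cre libraries, and in WT mice 22 were higher and 18 lower (edgeR quasi-likelihood test, Benjamini-Hochberg adjusted p under 0.05 over all genes). Of all genes tested, 59.4% were called in P278KY mice and 59.7% in WT mice, so the share of Kcn genes called is not above the background of this comparison. The CPM values of 44 Kcn genes in P278KY mice and 31 in WT mice did not overlap between Cre and NoCre libraries, beside 56.2% and 43.1% of all genes. Calls higher took 28.2% and 28.5% of all genes, and calls lower 31.2% in both. The median log2 fold change of the 80 Kcn genes was -0.095 in P278KY mice and 0.18 in WT mice, beside -0.131 and -0.122 for all genes. Other scalings moved the median of all genes in WT mice to -0.259 (RLE factors) and 0.2 (library size alone), and with library size alone the WT calls were 21 higher and 10 lower, 67.7% higher in place of 55.0%. Of all genes, library size alone called 28.2% higher and 19.5% lower in WT mice. Of the Kcn calls, 27 of 44 in P278KY and 20 of 40 in WT mice held in every alternative, and 5 in each were lost in more than 1 of 3 alternatives. The comparisons of the 2 genotypes share no library, but both come from 1 fit of all 18 libraries with a common estimate of the spread. 17 Kcn genes were higher and 13 lower in both, 3 were higher and 11 lower in P278KY mice alone, 5 were higher and 5 lower in WT mice alone, 26 were called in neither, and 0 were called in opposite directions. Across the 80 genes the fold changes had Spearman's rho 0.901 and Pearson's r 0.839, as a description over genes, which are not independent replicates. The likeness of the 2 genotypes over all genes is not given, so these counts and correlations are not shown to be particular to Kcn genes. In bulk RNA of this kind, fewer cells of a type and less RNA per cell cannot be told apart.

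**Figure D3:**
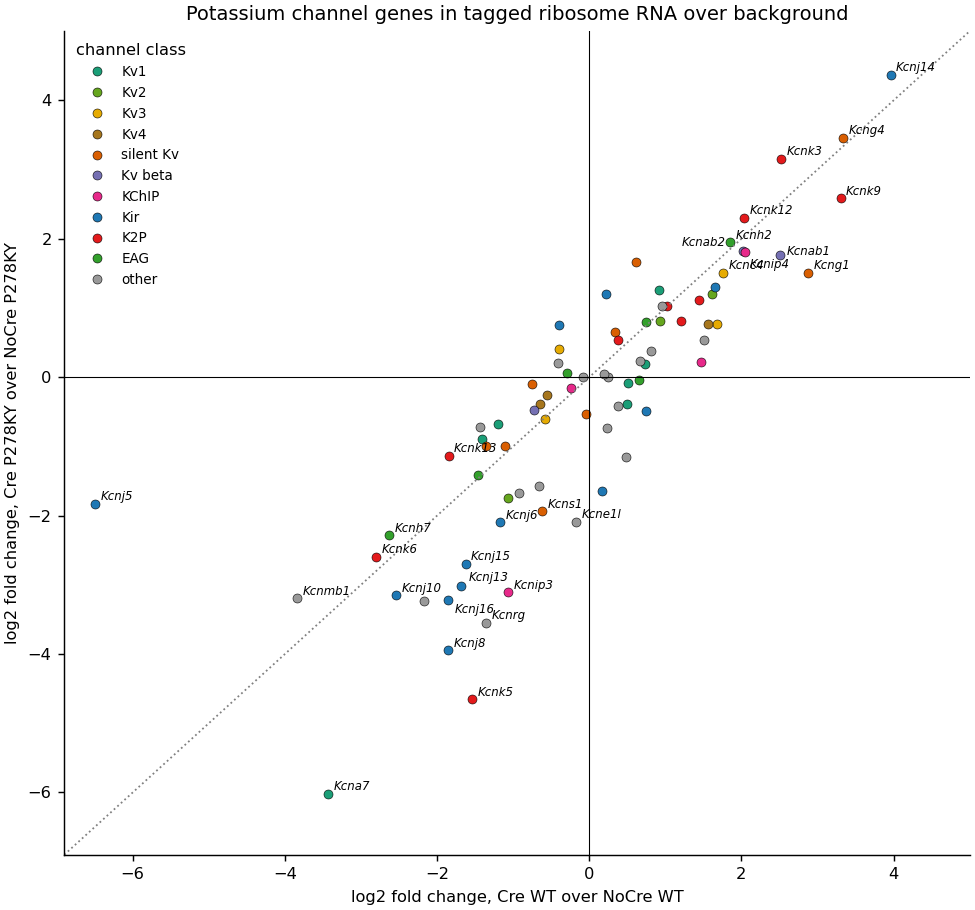
Log2 fold change of each tested Kcn gene, Cre WT over NoCre WT on the x axis and Cre P278KY over NoCre P278KY on the y axis, coloured by channel class, with the line of equal change dotted. Kcnj14, Kcng4, Kcnk9 and Kcnk3 lie at the upper right and Kcnmb1, Kcnj10 and Kcnh7 at the lower left. The fitted values of Kcna7, Kcnj5 and Kcnk5, with few counts, depend on the prior count.

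Kcnj14, an inward rectifier, was the most enriched of the Kcn genes tested. It had 60.03, 57.5 and 52.1 CPM in Cre P278KY, against 0.400 to 5.00 CPM (median 2.64) in NoCre P278KY. In WT mice it had 158.6, 150.1, 123.5 and 94.7 CPM in Cre libraries, against 9.43, 10.1, 6.76, 1.79 and 13.7 CPM in NoCre libraries. Every Cre library lay far above every NoCre library of its genotype, with log2 fold changes of 4.37 ± 0.47 (SE, adjusted p = 4.75e-07) and 3.96 ± 0.47 (1.25e-06). Kcnj12 (Kir2.2, a strong rectifier) was also higher in both, by 1.31 in P278KY (lost in 5 of 17 alternatives) and 1.66 in WT mice on the log2 scale. Of the G-protein-gated genes, which slow neurons when inhibitory receptors open them, Kcnj9 was higher in P278KY mice (1.196, adjusted p = 0.00123; WT 0.22, not called), Kcnj3 was higher in WT mice (0.74, lost in 7 of 20 alternatives; P278KY -0.49, not called), and Kcnj6 was lower in both (-2.10 and -1.17). Kcnj11, the pore of neuronal ATP-sensitive channels, passed in neither (0.76 and -0.40).

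The glial inward rectifiers Kcnj10 and Kcnj16 were lower in Cre libraries. Kcnj10 had 29.0, 36.9 and 62.8 CPM in Cre P278KY, against 345.6 to 464.6 CPM (median 365.3) in NoCre P278KY. In WT mice it had 26.7, 52.2, 205.4 and 150.5 CPM in Cre libraries, against 444.6, 481, 1357, 441.3 and 439 CPM in NoCre libraries. The groups did not overlap, and the 2 Cre WT libraries of 205.4 and 150.5 CPM were those of pool 2, where the oligodendrocyte and astrocyte lists were also high. The fold changes were -3.15 ± 0.59 (adjusted p = 0.000293) and -2.54 ± 0.52 (0.000522). Kcnj16 (Kir5.1, which joins Kir4.1 in glia) was lower by the same pattern, -3.22 in P278KY and -1.86 in WT mice, with 2.70 to 7.89 CPM in Cre P278KY and with 2.62 and 4.12 CPM in the pool 1 libraries of Cre WT against 26.2 and 18.4 CPM in those of pool 2. Kcnj8 (Kir6.1, the pore of the vascular ATP-sensitive channel) and Kcnj13 (Kir7.1, of the choroid plexus) had -3.95 and -3.02 in P278KY mice and -1.86 and -1.68, not called, in WT mice. Both passed the count filter through the NoCre libraries, so that their lower values in Cre libraries are a description. Beside these results, all 10 oligodendrocyte markers fell in P278KY and 9 of 10 in WT mice, 9 of 10 astrocyte markers fell in each, and all 10 endothelial and pericyte markers fell in P278KY and 8 of 10 in WT mice. Their part in the channel results was not tested.

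Leak channels of the TASK pair were strongly enriched. Kcnk9 had 43.4, 38.9 and 40.5 CPM in Cre P278KY, against 5.53 to 9.24 CPM (median 6.19) in NoCre P278KY, a log2 fold change of 2.58 ± 0.21 (adjusted p = 3.03e-09). In WT mice it had 111.8, 96.0, 70.6 and 74.3 CPM in Cre libraries, against 10.1, 8.20, 10.9, 6.18 and 8.83 CPM in NoCre libraries (3.30 ± 0.22, 1.67e-10). No library of either Cre group came near the background range. Kcnk3 (TASK-1), whose product pairs with TASK-3, had 85.0, 91.9 and 57.1 CPM in Cre P278KY, against 7.201 to 12.2 CPM (median 8.61) in NoCre P278KY (3.16 ± 0.27, 4.75e-09). In WT mice Kcnk3 had 67.4, 53.3, 52.5 and 64.1 CPM in Cre libraries, against 8.56, 5.87, 19.2, 8.37 and 9.29 CPM in NoCre libraries (2.52 ± 0.27, 1.04e-07). Again the groups did not overlap, although 1 NoCre WT library, replicate 3, stood above the other 4. Kcnk12 (THIK-2) was higher in both, by 2.30 in P278KY and 2.03 in WT mice. Kcnk1 (TWIK-1) was higher in P278KY mice (0.54; WT 0.38, not called) and Kcnk2 (TREK-1, opened by stretch and lipids) in WT mice (1.21; P278KY 0.81, not called). Kcnk13 (THIK-1, the leak channel of microglia) was lower in both, with -1.14 in P278KY mice, a call lost in 8 of 17 alternatives (adjusted p up to 0.117), and -1.85 in WT mice. Kcnk6 (TWIK-2) had -2.59 and -2.81, as a description, since it too passed the filter through the NoCre libraries. All 10 microglial markers were lower in both.

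Of the silent Kv subunits, which form no channel alone and alter Kv2 channels, Kcng4 and Kcng1 were higher in both genotypes and the other 7 tested were called in neither. Kcng4 had 90.01, 214.3 and 128.7 CPM in Cre P278KY, against 8.20 to 23.9 CPM (median 9.84) in NoCre P278KY. In WT mice it had 220.2, 162.4, 283 and 215 CPM in Cre libraries, against 30.6, 11.9, 22.0, 14.7 and 29.4 CPM in NoCre libraries. All Cre libraries exceeded all NoCre libraries, with log2 fold changes of 3.46 ± 0.35 (adjusted p = 1.35e-07) and 3.34 ± 0.36 (2.31e-07). Kcng1 rose by 1.51 in P278KY and 2.88 in WT mice. Of the 2 identifiers of Kcnb2 (Kv2.2), ENSMUSG00000092083 rose in both (0.81 and 0.93) and ENSMUSG00000090498, which has no match in GENCODE M21, fell in P278KY mice (-1.74; WT -1.06, not called); how reads were shared between the 2 entries is not known, so the Kv2.2 values are uncertain.

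Genes of the fast Kv3 delayed rectifiers and of the A-type Kv4 channels were called in both directions. Kcnc4 (Kv3.4) rose in both by 1.51 and 1.76. Kcnc1 (Kv3.1) fell in both by 0.60 (lost in 7 of 17 alternatives) and 0.58 on the log2 scale, and Kcnc2 (Kv3.2), known from fast-spiking interneurons, passed in neither (0.41 and -0.40). Among A-type Kv4 genes, Kcnd1 (Kv4.1) rose by 0.78 in P278KY and 1.57 in WT mice, Kcnd2 (Kv4.2) fell in WT mice (-0.65; P278KY -0.38, not called), and Kcnd3 (Kv4.3) passed in neither (-0.26 and -0.56). The Kcnd2 call was lost in 11 of 20 alternatives, where its value ran from -1.36 to -0.18 with adjusted p up to 0.745. Of their KChIP partners, Kcnip4 rose in both (1.82 and 2.04), Kcnip1 rose in WT mice (1.46; P278KY 0.21, not called), Kcnip2 passed in neither, and Kcnip3 fell in P278KY mice (-3.11; WT -1.06, not called). Kcnip3 split by pool within Cre WT, with 4.05 and 6.60 CPM in pool 1 and 30.0 and 27.6 CPM in pool 2, beside 2.61, 3.71 and 9.67 CPM in Cre P278KY.

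Of the 7 Kv1 alpha subunits tested, none was called higher in either genotype. Kcna1 and Kcna2, whose channels sit beside the nodes of Ranvier, had -0.39 and -0.09 in P278KY mice and 0.50 and 0.52 in WT mice on the log2 scale, with no call. Kcna6 fell in both (-0.90 and -1.41), and Kcna4 (Kv1.4, A-type) fell in WT mice (-1.21; P278KY -0.67, not called). Of the 3 Kv beta subunits, Kcnab1 rose by 1.76 in P278KY and 2.51 in WT mice, and Kcnab2 by 1.82 and 2.02. Kcnab2 had 229.5, 237.2 and 241.7 CPM in Cre P278KY, against 58.8 to 78.1 CPM (median 63.9) in NoCre P278KY, and 322, 382, 278.8 and 277.1 CPM in Cre WT, against 77.3, 52.1, 71.6, 92.3 and 94.8 CPM in NoCre WT. The ranges were well apart in both genotypes. Kcnab3 fell in WT mice (-0.73; P278KY -0.48, not called).

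Of the ether-a-go-go family, Kcnh2 (ERG1) rose by 1.95 in P278KY and 1.85 in WT mice and Kcnh1 (EAG1) by 0.81 and 0.74, while Kcnh7 (ERG3) fell by 2.28 and 2.63. Kcnh7 had 15.5, 16.7 and 19.1 CPM in Cre P278KY, against 34.2 to 111 CPM (median 95.2) in NoCre P278KY, and 5.29, 9.32, 14.6 and 13.9 CPM in Cre WT, against 91.6, 118.5, 78.9, 24.1 and 19.6 CPM in NoCre WT. The groups did not overlap, but the 2 lowest NoCre WT libraries, replicates 4 and 5, were also those with the highest share of mitochondrial ribosomal RNA. Of the Kv7 genes, some of which form the M-current that muscarinic receptors close, Kcnq3 fell in both (-0.71, a call lost in 8 of 17 alternatives with adjusted p up to 0.256, and -1.44) and Kcnq5 fell in P278KY mice (-1.15; WT 0.48, not called). The calcium-activated genes were mostly uncalled (5 of 9 tested in P278KY and 7 of 9 in WT mice). Kcnma1, the pore of the large-conductance BK channel, rose in WT mice (0.67; P278KY 0.23, not called), a call lost in 14 of 20 alternatives (0.01 to 1.17, adjusted p up to 0.98). Its smooth-muscle subunit Kcnmb1 fell in both (-3.20 and -3.84), with 0.332 to 0.735 CPM in Cre P278KY against 2.90 to 6.97 CPM in NoCre P278KY and 0.0623 to 1.12 CPM in Cre WT against 6.38 to 8.65 CPM in NoCre WT. Of the small-conductance genes behind the motor neuron after-hyperpolarisation, Kcnn1 rose in P278KY mice (1.04, lost in 12 of 17 alternatives; WT 0.96, not called), Kcnn2 fell in P278KY mice (-0.74; WT 0.23, not called), and Kcnn3 passed in neither. The sodium-activated Kcnt1 fell in both (-1.57 and -0.66, the WT call lost in 5 of 20 alternatives), and Kcnt2 passed in neither.

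The difference between genotypes in tagged RNA was asked by setting Cre P278KY against Cre WT. Of 70 Kcn genes tested, 4 were lower in Cre P278KY and 0 higher, and 66 did not pass (edgeR quasi-likelihood test, Benjamini-Hochberg adjusted p under 0.05). Of all 14717 genes tested 2.32% were called, 1.11% lower and 1.22% higher. At an unadjusted p under 0.05 stood 22 of the 70 Kcn genes, beside 16.2% of all genes, and DESeq2 called 12 lower and 0 higher, beside 3.71% and 2.89% of all genes. The values of 24 Kcn genes did not overlap between the groups, beside 16.6% of all genes. The median log2 fold change of the Kcn genes was -0.18, beside -0.0128 for all genes. Within pool 1 these medians were 0.0556 and 0.0412, and 9 Kcn genes were lower and 4 higher, where 4.81% and 4.3% of all genes were called.

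Kcnj2 (Kir2.1, a strong inward rectifier that stabilises the resting potential; ENSMUSG00000041695, chromosome 11, 111066164 to 111076821, plus strand in GENCODE M21 on GRCm38) had 3.46, 5.55 and 3.29 CPM in Cre P278KY, against 13.6, 12.1, 19.6 and 20.8 CPM in Cre WT. Every mutant library lay below every WT library, and the higher pair of WT libraries was that of pool 2. The log2 fold change was -1.99 ± 0.32 (adjusted p = 0.0108), and -1.57 within pool 1 (adjusted p = 0.0124). In the background the 2 genotypes overlapped, with 7.72 to 20.1 CPM (median 12.3) in NoCre P278KY and 10.1, 18.6, 15.9, 19.7 and 9.74 CPM in NoCre WT. Cre P278KY lay below NoCre P278KY as well (-1.64 ± 0.35, adjusted p = 0.000484), whereas Cre WT against NoCre WT did not pass (0.16 ± 0.31, adjusted p = 0.661).

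Kcnd1 (Kv4.1, an A-type channel that delays firing; ENSMUSG00000009731, chromosome X, 7822289 to 7838280, plus strand) had 19.3, 23.2 and 22.6 CPM in Cre P278KY, against 53.4, 45.9, 42.3 and 49.2 CPM in Cre WT. Both groups were tight and apart, at -1.11 ± 0.18 (adjusted p = 0.0114) and -1.13 within pool 1 (0.00705). The gene is X-linked, and the value of 19.3 CPM is that of the 1 mutant library with no Xist counts. Kcnj14 (ENSMUSG00000058743, chromosome 7, 45816460 to 45824782, minus strand), with the libraries given above, had -1.18 ± 0.20 (adjusted p = 0.0143), and -1.37 within pool 1 (0.0014). Its mutant libraries, at 52.1 to 60.03 CPM, lay below the lowest WT library at 94.7 CPM. In a fit of all 18 libraries its adjusted p was 0.248. Kcnk9 (ENSMUSG00000036760, chromosome 15, 72501089 to 72546340, minus strand) had -1.08 ± 0.20 (adjusted p = 0.0228), and -1.27 within pool 1 (0.00256), with mutant libraries at 38.9 to 43.4 CPM below WT libraries at 70.6 to 111.8 CPM. TASK-1, the partner of TASK-3, did not pass: Kcnk3 had 57.1 to 91.9 CPM in Cre P278KY and 52.5 to 67.4 CPM in Cre WT (0.42 ± 0.22, adjusted p = 0.399).

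**Figure D4:**
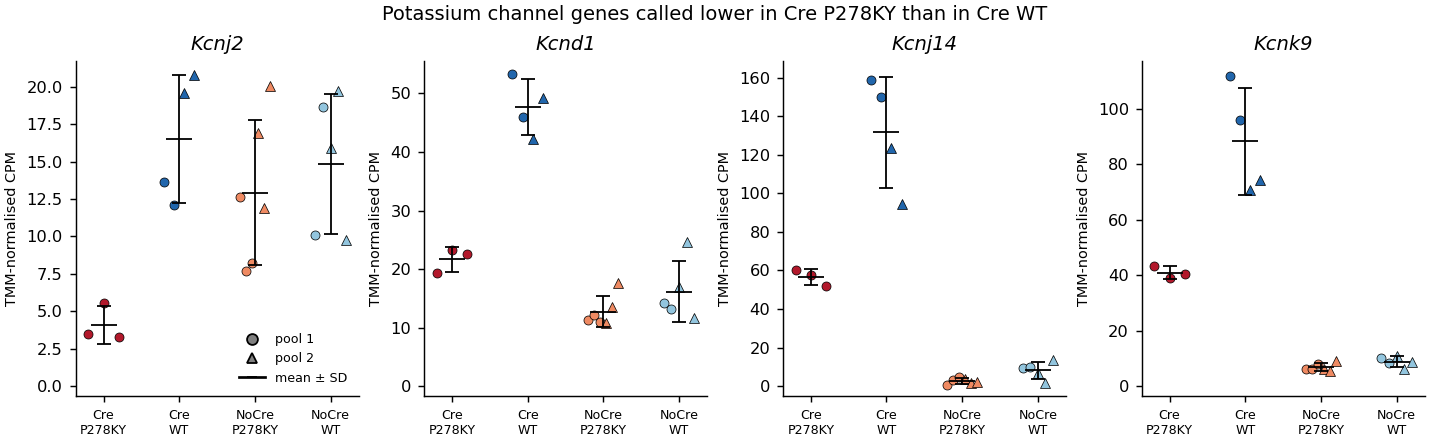
TMM-normalised CPM (y axis) of the 4 Kcn genes called lower in Cre P278KY than in Cre WT, by group (x axis), with circles for pool 1 and triangles for pool 2 and the mean ± SD as bars. In each gene the 3 Cre P278KY libraries lie below all 4 Cre WT libraries, and for Kcnj14 and Kcnk9 they lie above the NoCre libraries.

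These calls rested on few mutant mice. Without Cre P278KY replicate 1 or replicate 3 no Kcn gene was called lower, and without replicate 2 there was 1, Kcnj2 (adjusted p = 0.0291). The fold changes without 1 mutant library stayed between -1.06 and -1.17 for Kcnd1, -1.11 and -1.26 for Kcnj14, -1.04 and -1.15 for Kcnk9, and -1.84 and -2.28 for Kcnj2. Kcnk9 also lost its call without Cre WT replicate 1 (adjusted p = 0.0505). With library size alone as the scaling none was called, at adjusted p of 0.0778 to 0.132. Cell markers moved beside the genotype difference. Of the 10 cholinergic markers, Chodl, which marks fast motor neurons, was lower in Cre P278KY (-2.53, adjusted p = 0.0032) and the other 9 did not pass. Of the 10 interneuron markers, Penk, the enkephalin precursor, was higher (1.11, adjusted p = 0.0271) and the other 9 did not pass. The interneuron list summed to 500.3 to 832.7 CPM in Cre P278KY, against 223.1 to 460.5 CPM in Cre WT (223.1 to 338 CPM in pool 1), and the cholinergic list to 1669 to 2122 CPM in Cre P278KY, against 3085 to 3361 CPM in pool 1 of Cre WT. These sums rest on a few abundant genes. Chodl had means of 72.0 and 427.5 CPM in Cre P278KY and Cre WT, Calca 99.8 and 386.2, and Slc5a7 675.3 and 500.3. Among interneuron genes Sst had 197.9 and 69.2 CPM and Penk 161.2 and 75.8. Median log2 fold changes were -0.073 for the cholinergic list and 0.339 for the interneuron list. Against NoCre libraries, 2 interneuron markers rose and 5 fell in P278KY mice, and 6 fell in WT mice. No oligodendrocyte, astrocyte, microglial, endothelial or muscle marker passed in the genotype comparison. Their median log2 fold changes were nonetheless -1.578, -1.206, -0.107, -1.095 and -2.715, in that order. In Cre WT the astrocyte list summed to 454.5 to 672.8 CPM in pool 1 and 1264 to 1545 CPM in pool 2. The endothelial list summed to 35.2 to 40.3 CPM and 165.2 to 218.1 CPM there. The part of these markers in the channel results was not tested.

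A further 9 Kcn genes were called within pool 1 and not over all 7 libraries by edgeR, and these are named because of that result. Lower there were Kcng1 (-1.57, adjusted p = 0.057 over all 7 libraries), Kcnk12 (-1.42, 0.214), Kcnj12 (-1.18, 0.066), Kcnt1 (-0.87, 0.0659) and Kcnab1 (-0.82, 0.0603). Over all 7 libraries DESeq2 called Kcng1, Kcnj12, Kcnt1 and Kcnab1 lower (adjusted p 0.00137, 0.00522, 0.00842 and 0.00273). Kcnab1 had 73.2, 70.8 and 81.6 CPM in Cre P278KY, against 147.9, 130.6, 124 and 105.3 CPM in Cre WT, so that its groups did not overlap. Higher within pool 1 were Kcnc2 (1.32, adjusted p = 0.232 over all 7 libraries), Kcnh7 (1.31, 0.362), Kcnq3 (1.26, 0.211) and Kcnd2 (1.10, 0.673). Kcnq3, a subunit of the M-channel, had 76.7, 92.7 and 57.1 CPM in Cre P278KY, against 40.0 and 25.8 CPM in the pool 1 libraries and 58.9 and 47.9 CPM in the pool 2 libraries of Cre WT. Kcnc2 had 33.2, 35.7 and 29.3 CPM in Cre P278KY, against 16.8 and 10.5 CPM in pool 1 and 26.0 and 22.6 CPM in pool 2 of Cre WT. Every Cre P278KY library lay above the pool 1 libraries of Cre WT for both genes, while 1 pool 2 library of Cre WT overlapped the mutant values for Kcnq3. Only 1 of the 4, Kcnc2, was uncalled in both enrichments, and the other 3 were lower in Cre WT than in NoCre WT. The pool 1 comparison sets 3 libraries against 2 that differ in Xist as given above.

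**Figure D5:**
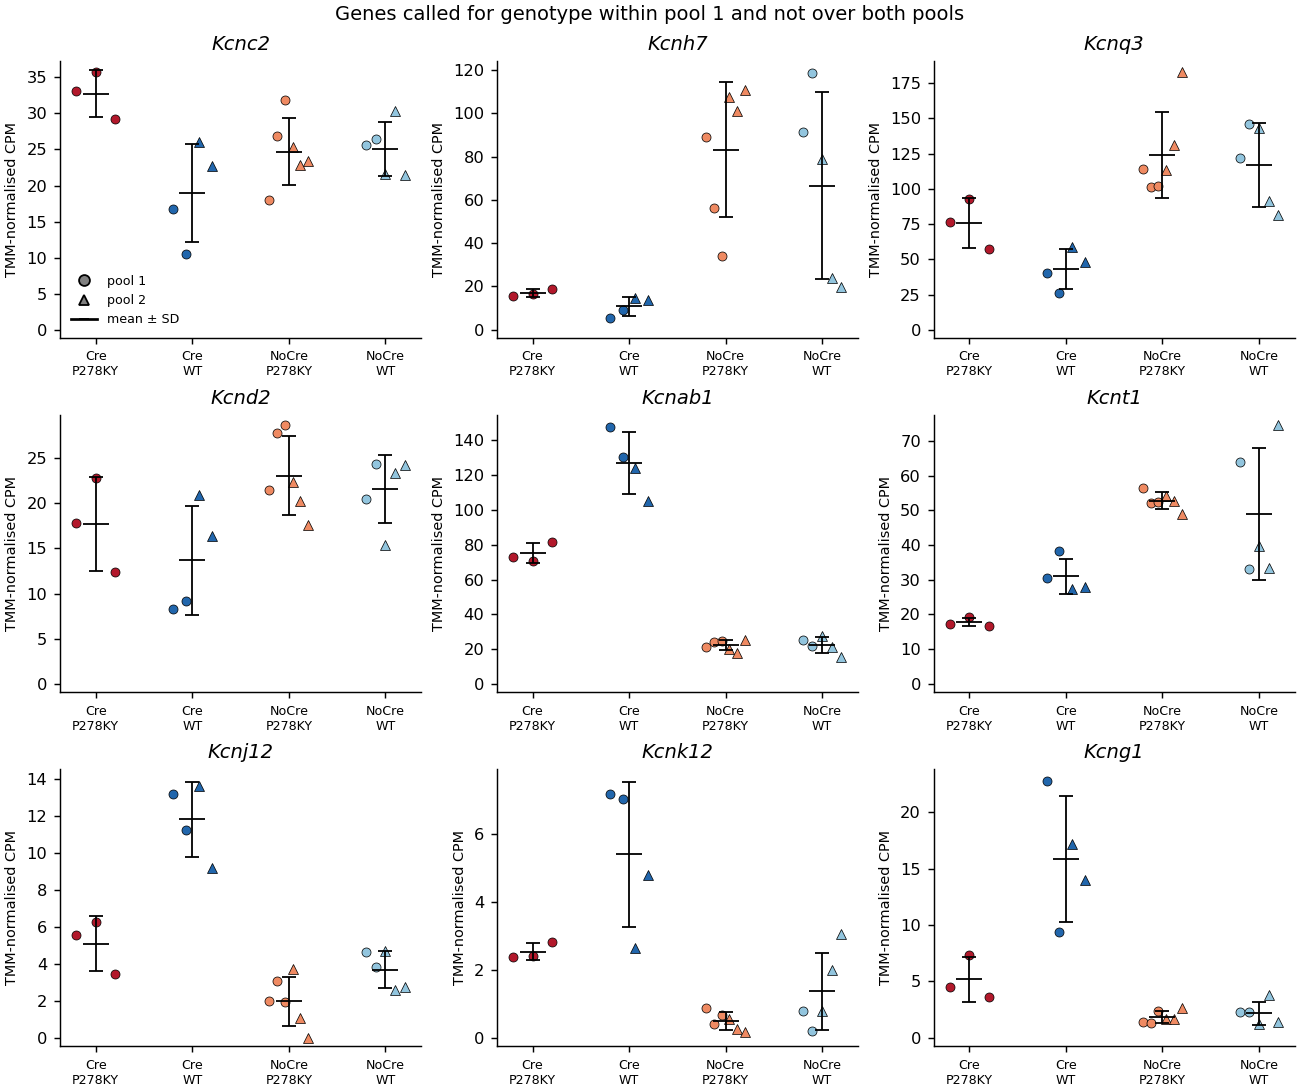
TMM-normalised CPM (y axis) by group (x axis) of the 9 Kcn genes called by edgeR for genotype within pool 1 and not over all 7 Cre libraries, with circles for pool 1, triangles for pool 2 and the mean ± SD. For Kcnc2 the pool 2 libraries of Cre WT (26.0 and 22.6 CPM) lie between the pool 1 libraries (16.8 and 10.5 CPM) and Cre P278KY, and for Kcnab1 all 4 Cre WT libraries lie above Cre P278KY.

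Other members of textbook interest did not pass in the Cre genotype comparison and are given as values. Kcnip1 had -0.75 (adjusted p = 0.0871), Kcnj3 -0.71 (0.0943) and Kcnq5 -1.26 (0.087), each with no overlap between the groups. Kcna1 had -0.75 and Kcna2 -0.64 (adjusted p 0.251 and 0.182) and Kcng4 -0.59 (0.384). Kcnh2 (0.13), Kcnma1 (-0.05), Kcnn1 (-0.28), Kcnn2 (-0.39) and Kcnn3 (-0.16) had smaller values, beside SEs of 0.20 to 0.34. By class, 2 of the 9 Kir genes tested were lower, 1 of 8 K2P and 1 of 3 Kv4 genes. By edgeR over all 7 Cre libraries, no tested gene of the Kv1, Kv2, Kv3, Kv7, Kv beta, KChIP, silent, EAG, calcium-activated or sodium-activated classes was called. The summed Kir level per length was 52.6 to 54.4 CPM per kb in Cre P278KY and 97.2 to 130.5 CPM per kb in Cre WT, with no overlap and no test. Much of this difference lay in the called gene Kcnj14, with means of 22.65 and 52.7 CPM per kb. Kcnj10, high in the pool 2 libraries of Cre WT, had 8.17 and 20.7 CPM per kb. The sum is thus no separate result for the class.

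In background RNA the genotypes were set against each other as NoCre P278KY over NoCre WT. None of the 80 Kcn genes tested was called in either direction by edgeR (0.0233% of all genes were called), 10 had an unadjusted p under 0.05, beside 6.77% of all genes, and DESeq2 called 1 lower, Kcnj14, beside 0.134% of all genes. Of the cholinergic markers 2 of 10 were lower in NoCre P278KY. The smallest adjusted p was 0.557, for Kcnj14 (-1.63 ± 0.43), with 0.400 to 5.00 CPM in NoCre P278KY and 1.79 to 13.7 CPM in NoCre WT, which overlapped. Kcnj13, at 3.28 to 9.41 CPM in NoCre P278KY and 0.598 to 3.04 CPM in NoCre WT, was the only member whose groups did not overlap, beside 0.718% of all genes (1.48 ± 0.63, adjusted p = 0.725). Scaling by library size alone shifted the median of all genes here to 0.354, beside -0.00516 with TMM factors.

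Whether the enrichment itself differed between genotypes was asked by the interaction of genotype with Cre. No Kcn gene was called by edgeR in either direction (0.654% of all genes were called), 19 had an unadjusted p under 0.05, beside 11.1% of all genes, and DESeq2 called 5 lower, Kcnj2, Kcnip1, Kcnq5, Kcnn2 and Kcne1l, beside 1.35% of all genes. Kcnj2 came closest, with an enrichment of -1.64 in P278KY and 0.16 in WT mice, a difference of -1.80 ± 0.46 (adjusted p = 0.0739 with edgeR and 0.0125 with DESeq2). Without Cre WT replicate 1, edgeR called 3 Kcn genes lower, Kcnj2, Kcnip3 and Kcne1l. Kcnj2 was followed by Kcnip1 (0.21 and 1.46, difference -1.25 ± 0.34, adjusted p = 0.108) and Kcnq5 (-1.15 and 0.48, difference -1.63 ± 0.45, adjusted p = 0.111). For Kcnj14 the difference was 0.41 ± 0.64 (adjusted p = 0.869), with values of -1.18 for genotype in Cre and -1.63 in NoCre libraries. Within pool 1, 2 Kcn genes were called higher, Kcnq3 (1.55) and Kcnh7 (2.06), and 0 lower, where 1.17% and 1.2% of all genes were. Calls in 1 genotype alone in the enrichment are thus not shown to differ between genotypes by this test.

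Partners of potassium channels were described from a list of 27 genes, of which 26 were tested in these fits. The list was chosen with earlier results of these data known, so its shares and medians are a description. In both genotypes 13 were higher in Cre than in NoCre libraries, and 6 in P278KY and 5 in WT mice were lower, beside 28.2% and 28.5% of all genes higher and 31.2% lower. The median log2 fold change was 0.49 in P278KY and 0.66 in WT mice, beside -0.13 and -0.12 for all genes. Vapa and Vapb, which tether Kv2 clusters to the endoplasmic reticulum, rose by 2.2 and 2.02 and by 1.14 and 1.36. Chrm2, the muscarinic receptor that opens G-protein-gated channels, rose by 1.13 and 1.97. Lgi1, a secreted ligand of the Kv1-associated Adam22, fell by 2.45 and 1.61, and Cntn2, the adhesion protein of the juxtaparanode, fell by 0.95 and 0.88 on the log2 scale. In the genotype comparison of Cre libraries 1 partner was higher and 2 were lower in Cre P278KY, beside 1.22% and 1.11% of all genes. Hcn4 rose (1.36, adjusted p = 0.0373), with 9.81 to 19.8 CPM in Cre P278KY against 4.87 to 6.498 CPM in Cre WT. Adam23, an Lgi1 receptor, fell (-1.01, adjusted p = 0.0419), with 160.6 to 197 CPM in Cre P278KY against 274.9 to 425.8 CPM in Cre WT. Lrrc52, an auxiliary subunit of Slo-type channels, fell at low counts (-4.13, adjusted p = 0.0329), at 0 to 0.142 CPM in Cre P278KY against 1.08 to 2.12 CPM in Cre WT. The groups did not overlap for any of these 3.

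The remaining members were low. 15 of the 95 did not reach the count minimum of the 18-library fit, with 1 to 76 counts over all libraries: Kcna10, Kcne1, Kcne2, Kcne3, Kcnh3, Kcnh4, Kcnj1, Kcnj4, Kcnk7, Kcnk15, Kcnk16, Kcnk18, Kcnmb3, Kcnq1 and Kcnv2. Others passed that filter and not the filter of the 7 Cre libraries, so they passed through the NoCre libraries, among them Kcna7, Kcnj5, Kcnj8, Kcnj13, Kcnj15, Kcnk5, Kcnk6, Kcnrg and Kcns1. Their lower values in Cre libraries, with the ratios and bounds that follow, are a description. Kcna7 had 0 counts over the 3 Cre P278KY libraries, against 41 over the 6 NoCre P278KY libraries, at least 10.3-fold lower when 3 counts for the whole group are taken as the limit of detection. Kcnk5 (TASK-2) had 1 count in Cre P278KY against 53 in NoCre P278KY, a ratio of NoCre to Cre of 40.1 (95% counting interval 6.88 to 1611). Kcnj5 (the G-protein-gated Kir3.4) had 2 counts in Cre WT against 92 in NoCre WT, a ratio of NoCre to Cre of 90.2 (24.3 to 755.7). The NoCre WT counts were 6, 6, 9, 50 and 21 in order of replicate, a spread between libraries that the interval does not cover.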

How the data were processed

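RiboTag RNA sequencing libraries of 18 spinal cords were analysed. The deposited tables hold 1 row per gene, and per the file headers their values are expected (estimated) counts, TPM and effective lengths as RSEM writes them. Per the submitters' processing notes, reads were handled with Bowtie2 2.2.0 and RSEM 1.2.12. The genome build is not given in the sources used here, nor is the gene annotation. The deposited expected counts were rounded to whole numbers, and library totals moved by at most 0.000964%. The deposited TPM values served only for class shares as an alternative. The effective lengths gave CPM per kilobase. Gene positions come from GENCODE M21 (GRCm38), which holds 94 of the 95 members, and promoter windows from RefSeq (GRCm38.p6).

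Groups follow the genotype labels, and replicate numbers follow the order of accession and pair nothing. Pools (10 and 8 libraries) are not named in the labels. They were inferred from the library index and number in the descriptions, a new pool being taken to begin where an index or number recurred. Nothing says whether the mice came from separate litters, and p-values measure the spread between these mice.

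The genotype difference in Cre libraries was fitted on those 7 libraries, the other 4 comparisons on all 18 with 4 group means. Both used edgeR 4.0.16 in R 4.3.3 (filterByExpr, TMM, robust quasi-likelihood test, two-sided), with Benjamini-Hochberg adjustment over all genes tested and a threshold of 0.05. CPM values, except those of Xist, carry the TMM factors of the 18-library fit. Library totals ranged from 8177758 to 24028649 counts. Floors (3 counts) and 95% intervals cover counting error only, since PCR reads are not independent molecules.

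On simulated counts with 200 changed genes, 10% of 2-fold and 75% of 4-fold changes were recovered for the Cre genotype difference (14490 genes, 7 false calls), and 3% and 35% for the interaction (17030 genes, 2 false calls). The smaller differences were therefore mostly out of reach.

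Named genes were all members called for genotype, the 8 largest rises and falls in each enrichment with a mean log2 CPM above 0, the highest member of each subfamily by level per length in Cre WT, and a set of textbook channel genes. Other members were named after their values were seen. Some genes that this rule selects are not reported here by name, though counts over all members include them. The members, the partner list and the 7 marker lists (cholinergic, oligodendrocyte, astrocyte, microglia, endothelial and pericyte, interneuron, skeletal muscle) were chosen with earlier results of these data known. Skeletal muscle markers summed to 4.57 to 5.07 CPM in Cre P278KY, 12.3 to 66.0 CPM in Cre WT, 49.5 to 487 CPM in NoCre P278KY and 10.3 to 336 CPM in NoCre WT, and all 8 fell in P278KY and 0 in WT mice with Cre.

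Alternatives were other scalings, no count filter, DESeq2 1.42.0, pool as a term, each pool alone, the mouse number as a replicate block, 1 fit of all libraries, and leaving out each library in turn.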

Additional observations from a re-analysis of the deposited data

Results flagged for a closer look

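Over 23 members and 69 groups of 4 to 6 libraries, 6 values lay far outside the rest of their group by Dixon's test, where chance alone gives about 1 group in 20. Kcnj10 reached 464.6 CPM in NoCre P278KY replicate 6, against 345.6 to 388.7 CPM in the other 5 libraries. In NoCre WT replicate 3 it reached 1357 CPM, against 439 to 481 CPM in the other 4. Kcnk3, a neuronal leak channel, was highest in the same libraries, at 12.2 CPM in NoCre P278KY replicate 6, against 7.201 to 8.73 CPM, and at 19.2 CPM in NoCre WT replicate 3, against 5.87 to 9.29 CPM. Kcnj8, of vessel walls, had 14.7 CPM in NoCre WT replicate 4, against 1.82 to 5.02 CPM. Kcnj13 had 1.89 CPM in Cre WT replicate 4, against 0.0623 to 0.244 CPM in the other 3. The TMM factor was 0.5819 in NoCre P278KY replicate 6, 0.4382 in NoCre WT replicate 4 and 1.232 in NoCre WT replicate 3. A low factor raises every CPM value of its library. In counts, NoCre P278KY replicate 6 was the lowest of its group for Kcnj10 (2665) and Kcnk3 (70), in a library of 9876808 counts. The part of the scaling in these flags was not tested.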

How the results depend on the processing

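Of 4 Kcn genes lower in Cre P278KY than in Cre WT, library size scaling left 0, DESeq2 called 12 (3.71% of all genes), pool as a term 10 (5.95%, with 6 higher), and pool 1 alone 9 (4.81%, with 4 higher). The mouse number as a replicate block called 18 lower (5.95%). What that number marks is not given in the labels, and its block rests on the 1 number that both genotypes share, where Cre P278KY libraries of pool 1 meet Cre WT libraries of pool 2. The 4 genes were among those called with DESeq2, the pool term, the block and pool 1 alone. Since pool 2 holds Cre WT alone among Cre libraries, the genotype difference with the pool term also rests on pool 1. The pool term and pool 1 alone are thus not separate checks. Leaving out 1 library gave 0 to 6 lower, with 0 without Cre P278KY replicate 1 or 3. For Cre WT over NoCre WT, library size scaling gave 10 lower (19.5% of all genes) beside 21 higher (28.2%). Pool 2 alone gave 7 lower (15.6%), against 18 (31.2%) in the main fit. DESeq2 called 1 Kcn gene lower in the NoCre genotype difference (0.134% of all genes). In the interaction, pool 1 alone called 2 higher (1.17% of all genes), DESeq2 5 lower (1.35%) and the block 1 lower (0.496%). With 1 library left out, 0 to 3 were lower there. None of the 88 calls changed sign over 1601 values refitted under the alternatives. The cause was not tested. After seeing the data, Cre WT over NoCre WT was refitted without the 2 pool 2 libraries of Cre WT (17 higher, 27 lower) and without the 2 NoCre WT libraries of highest mitochondrial ribosomal RNA share (20 higher, 20 lower). For fits with libraries left out, the shares of all genes called are not given here, so their counts are a description. By deposited TPM the Kv7 share was 6.25% in Cre P278KY and 7.44% in Cre WT, against 5.04% and 4.21% from CPM per kb. All 3 mutant Cre libraries come from pool 1, sex is not labelled, and Xist differs between the pools.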
